A study of Homo sapiens with 24 samples.

Results

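Clade B serpins are a family of serine and cysteine protease inhibitors that stay mostly inside the cell. The 10 genes described here (SERPINB1, SERPINB2, SERPINB3, SERPINB4, SERPINB5, SERPINB6, SERPINB7, SERPINB8, SERPINB9 and SERPINB13) were taken by symbol from the 61860 genes of the count tables, and SERPINB3 and SERPINB4 were also summed because they are near-identical. They were picked with their treated against control values in view, so those values are given as a description and nothing is concluded from how many of them differ.

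A serpin presents a protease with an exposed reactive centre loop, and when the loop is cut the serpin changes shape and traps the enzyme in a covalent complex. In stratified squamous epithelium such as the esophageal lining, SERPINB3, SERPINB4, SERPINB5, SERPINB7 and SERPINB13 are known as products of differentiating or basal keratinocytes. SERPINB3 and SERPINB4 are the squamous cell carcinoma antigens, SERPINB5 is maspin, and SERPINB2 is plasminogen activator inhibitor type 2.

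RNA-seq was performed in 24 libraries, 3 in each of 8 groups, all of OE33, a cell line from a human esophageal adenocarcinoma. In the xenograft experiment, male BALB/c-nu mice, bought at 4 weeks of age, were fed either the high-fat diet (HFD) or, as the control, normal diet (ND) for 8 weeks, were injected under the skin with OE33 cells and kept their diet for 3 more weeks of tumor growth. Nude mice lack T cells but keep other leukocytes, and the tumors hold mouse stroma. In the cultured experiments, cells carried a plasmid for HA-tagged TRIM15 (HA-TRIM15) or the empty vector (EV) for 48 h, a plasmid with a short hairpin RNA against YY2 (shYY2) or its shControl for 72 h, or a hairpin against FOXRED1 (shFOXRED1) or its own shControl for 72 h. TRIM15 is a ubiquitin ligase, YY2 a zinc finger transcription factor and FOXRED1 an assembly factor of mitochondrial complex I. The design asks how the diet of the host, TRIM15, YY2 and FOXRED1 alter the transcriptome. All groups rest on 1 cell line. Nothing in the labels says that libraries of a group came from separate cultures or animals, so error estimates measure only the spread between these libraries, and 3 against 3 libraries cannot give an exact permutation p below 0.1.

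Total counts ran from 14299807 to 45994561 per library. TRIM15 had 111, 130 and 181 counts with HA-TRIM15 and 0 in each EV library, and it had 14, 12 and 24 counts with HFD against 1, 0 and 0 with ND. YY2 had 11, 12 and 11 counts with shYY2 against 43, 40 and 46 with shControl. FOXRED1 had 183, 207 and 129 counts with shFOXRED1 against 322, 259 and 254 with shControl. The cells carried columnar keratins: KRT19 averaged 11540 to 20110 TPM (transcript level scaled to gene length and to a fixed total per library) and KRT8 583 to 1179 TPM over the 8 groups, while the basal squamous keratin KRT5 did not exceed a mean of 0.137 TPM and TP63, the transcription factor of squamous epithelium, 1.20 TPM. KRT14, another basal keratin, averaged from 0.0736 TPM in the shControl of the FOXRED1 experiment to 12.3 TPM in that of the YY2 experiment, and KRT13, a keratin of the inner lining of the esophagus, 0.807 to 3.05 TPM. Of 16 human leukocyte markers, 2 passed the low-count filter in the xenografts, and PTPRC, the pan-leukocyte marker, averaged 0.0146 CPM (counts scaled to a fixed library size) with HFD and 0.0584 CPM with ND. The summed leukocyte list was 15.1 to 15.6 CPM with HFD and 15.8 to 17.3 CPM with ND, most of it ITGAM and CD14. Cultured cells without leukocytes held these as well. There the sum was 8.64 to 9.17 CPM with EV, and 14.6 to 16.1 and 28.2 to 30.1 CPM in the shControl of the YY2 and FOXRED1 experiments. In the tumors the summed stromal and endothelial list was 26.48 to 28.98 CPM with HFD against 32.7 to 35.7 CPM with ND, nearly all of it COL1A1. TYROBP, a myeloid marker, was at 0 in both diet groups. All these rows are human genes, whereas leukocytes and stroma of the host are mouse cells. How mouse reads were treated is not given in the sources used here, so these lists do not measure host cells. The stromal list was also 44.7 to 46.9 CPM with shYY2 against 12.0 to 12.8 CPM with shControl, again mostly COL1A1, in cells grown without stroma. The part of these lists in the results below was not tested. In bulk RNA, fewer cells of a type and less RNA per cell cannot be told apart.

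On the TPM scale, which divides by gene length and so allows genes to be compared, SERPINB1 led the family in all 8 groups. In ND tumors its level was 405 ± 5.32 TPM (SD, n = 3), followed by SERPINB2 at 99.0 ± 4.73, SERPINB5 at 76.9 ± 1.78, SERPINB9 at 67.3 ± 1.67, SERPINB7 at 46.4 ± 0.862, SERPINB6 at 37.5 ± 1.21 and SERPINB8 at 2.46 ± 0.323 TPM. SERPINB3 at 1.12 ± 0.269 TPM and SERPINB4 at 0.920 ± 0.217 TPM came last among the detected genes, and their ranges over libraries overlapped. In the cultured controls the order was less firm. With EV, SERPINB5 (92.5 to 94.1 TPM) and SERPINB9 (90.1 to 92.7 TPM) overlapped. In the shControl of the YY2 experiment the overlapping neighbours were SERPINB2 (114 to 116 TPM) and SERPINB9 (112 to 117 TPM), and in the shControl of the FOXRED1 experiment SERPINB6 (34.7 to 36.7 TPM) and SERPINB2 (33.4 to 35.4 TPM). SERPINB2 differed widely among the cultured controls, at 192 ± 2.55 TPM with EV, 115 ± 0.926 TPM in 1 shControl and 34.5 ± 0.996 TPM in the other. SERPINB7 ran the other way in those cultures, at 5.40 ± 0.405, 15.1 ± 1.10 and 30.4 ± 0.794 TPM. The order also depends on the length used. With the longest transcript in place of all exons, SERPINB6 was at 62.9 TPM in ND tumors, above SERPINB9 (47.97 TPM) and SERPINB7 (39.6 TPM). By that length SERPINB5 (93.9 TPM) and SERPINB9 (65.4 TPM) stood apart with EV, and so did SERPINB6 (60.4 TPM) and SERPINB2 (31.7 TPM) in the shControl of the FOXRED1 experiment. With EV SERPINB7 (4.60 TPM) then came below SERPINB8 (5.14 TPM), while SERPINB1 led in every group by either length. The controls come from separate experiments, so culture, vector, time and run cannot be told apart.

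**Figure D1:**
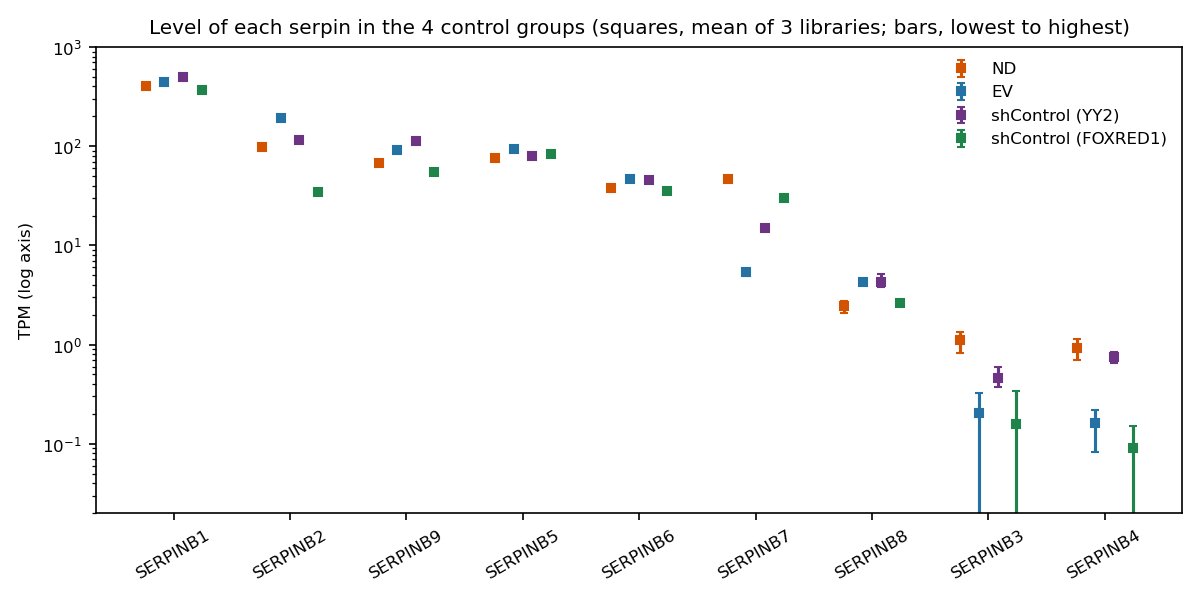
Level in TPM on a log axis of 9 serpins in the 4 control groups; squares are means of 3 libraries and bars run from the lowest to the highest library (bars leaving the bottom edge reach 0). SERPINB1 is highest in every group, SERPINB2 and SERPINB7 spread widely between control groups, and SERPINB3 and SERPINB4 lie near or below 1 TPM.

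Summed over the 10 genes, the family amounted to 1210 ± 28.8 TPM with HFD and 736.5 ± 5.04 TPM with ND, of which SERPINB1 made up 60.6% and 55.0%. The sum was 1128 ± 27.7 TPM with HA-TRIM15 against 874 ± 6.84 TPM with EV. It was 493 ± 2.39 TPM with shYY2 against 873 ± 5.82 TPM, and 352 ± 23.8 TPM with shFOXRED1 against 612 ± 13.7 TPM.

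SERPINB3, an inhibitor of cathepsins L, K and S, and SERPINB4, which inhibits cathepsin G and chymase, lie side by side on the minus strand of chromosome 18 (GRCh38, chr18:63655197-63661963 and chr18:63637259-63644298). Over their 1170 coding bases 56 differ, an identity of 95.2%, whereas the other 44 pairs among the 10 coding sequences are 49% to 72.7% identical. The stretch below is the 90-base coding window in which they differ most, coding bases 970 to 1059 in exon 8 of 8 (chr18:63655771-63655860 for SERPINB3 and chr18:63637833-63637922 for SERPINB4), the exon that encodes the reactive centre loop. It is shown because differences that allow reads of the pair to be told apart are densest here, and capitals mark the 13 bases that differ.
SERPINB3: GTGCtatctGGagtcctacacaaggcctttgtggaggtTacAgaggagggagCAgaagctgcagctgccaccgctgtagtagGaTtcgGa
SERPINB4: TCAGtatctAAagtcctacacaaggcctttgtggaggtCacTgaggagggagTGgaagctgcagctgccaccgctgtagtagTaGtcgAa
The longest stretch the annotated transcripts share is 129 bases, shorter than the 150-base reads, and any 150-base coding window holds at least 1 and at most 20 differences. Reads were therefore separable in principle, but how the counting treated a read that fits both genes is not given in the sources used here, so the split is uncertain and the sum is not affected by it.

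The 2 genes also start alike. In the 250 bases before their RefSeq starts (GRCh38.p14) 3 bases differ. The 180 bases that lie before any annotated exon of their own gene are shown because both genes were high in the same 3 libraries. That of SERPINB3 lies within the span of SERPINB11 on the opposite strand. The stretches are chr18:63661964-63662143 for SERPINB3 and chr18:63644327-63644506 for SERPINB4, both on the minus strand, with the 1 differing base in capitals.
SERPINB3: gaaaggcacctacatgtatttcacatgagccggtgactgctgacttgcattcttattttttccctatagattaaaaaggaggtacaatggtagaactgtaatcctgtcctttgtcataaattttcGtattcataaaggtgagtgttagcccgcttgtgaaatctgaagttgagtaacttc
SERPINB4: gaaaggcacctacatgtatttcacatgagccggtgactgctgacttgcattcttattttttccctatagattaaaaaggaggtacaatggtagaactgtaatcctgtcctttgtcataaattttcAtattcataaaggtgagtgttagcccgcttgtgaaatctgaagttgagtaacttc

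In HFD tumors SERPINB3 had 271, 235 and 500 counts (11.9, 12.7 and 13.4 CPM), and in ND tumors 14, 23 and 7 counts (0.522, 0.480 and 0.322 CPM). SERPINB4 had 318, 229 and 502 counts (13.9, 12.4 and 13.5 CPM) with HFD and 11, 15 and 11 counts (0.410, 0.313 and 0.506 CPM) with ND. For both genes every HFD library lay far above every ND library, which themselves held few reads. The sum was 25.9 ± 0.914 CPM with HFD and 0.851 ± 0.0723 CPM with ND, a difference of 4.93 ± 0.0999 on the log2 scale (estimate ± SE) or 30.4-fold. Taken singly the log2 differences were 4.77 ± 0.141 for SERPINB3 and 5.08 ± 0.146 for SERPINB4. SERPINB3 supplied 46.0% (exact 95% interval, 41.9 to 50.1), 50.7% (46.0 to 55.3) and 49.9% (46.8 to 53.0) of the sum in the 3 HFD libraries, intervals that cover counting error only. In ND libraries its share was 56.0%, 60.5% and 38.9%, on sums of 25, 38 and 18 counts, and these intervals overlapped those of HFD.

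In cultured cells the pair was close to the limit of detection. The sum had 9, 5 and 4 counts with HA-TRIM15 and 2, 5 and 4 with EV, which in CPM did not overlap (0.251 to 0.437 against 0.0982 to 0.221) but did not pass the low-count filter. The shYY2 libraries had 9, 4 and 6 counts against 10, 9 and 10 in shControl, and the shFOXRED1 libraries 0, 2 and 0 against 2, 3 and 0. A library at 0 allows up to 3 counts, and differences at these levels were not detectable at this depth. SERPINB3 shares 620 of its exon bases, 34.9% of their length, with SERPINB11 on the opposite strand. SERPINB11 had 0, 0 and 1 counts with HFD, where SERPINB3 had 271, 235 and 500.

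**Figure D2:**
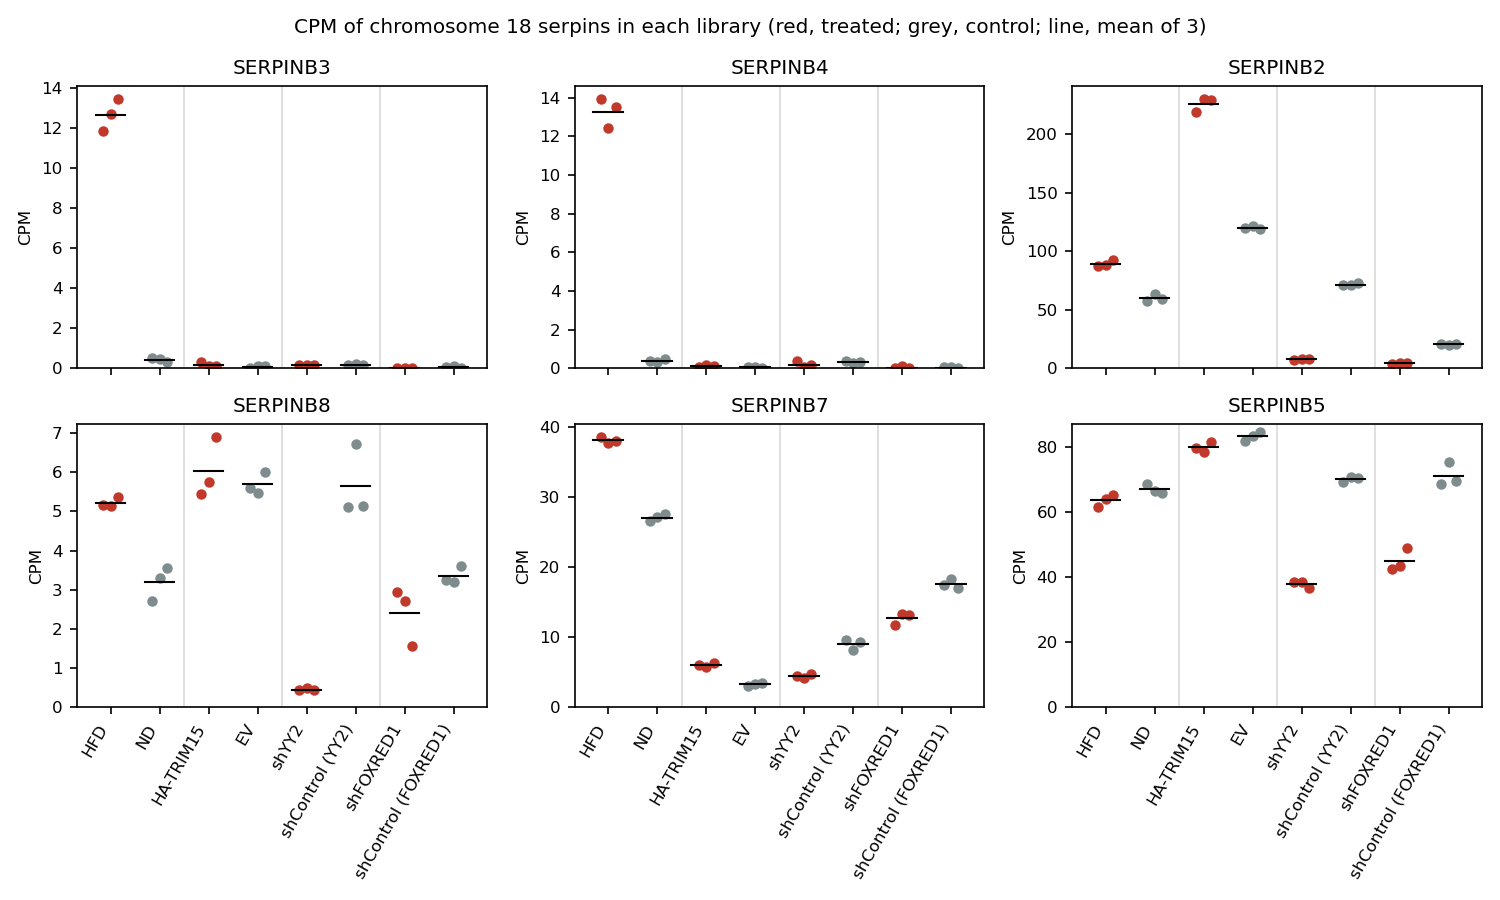
CPM of 6 serpins of chromosome 18 in each of the 24 libraries (red, treated; grey, control; the line is the mean of 3 libraries; each axis starts at 0). SERPINB3 and SERPINB4 stand high only in the 3 HFD libraries, SERPINB2 is lowest with shYY2 and shFOXRED1, and SERPINB8 with shYY2.

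SERPINB2 inhibits the urokinase-type and tissue-type plasminogen activators and is a classic gene of stressed and inflamed cells (chr18:63871692-63903890, plus strand). It had 87.6, 88.0 and 92.7 CPM with HFD and 57.7, 63.3 and 59.4 CPM with ND, a log2 difference of 0.55 ± 0.0414. With HA-TRIM15 it had 218, 230 and 229 CPM, and with EV 119, 121 and 119 CPM, a difference of 0.93 ± 0.0345. In both experiments the treated libraries lay above all controls. The knockdowns went the other way. SERPINB2 had 7.60, 8.29 and 8.37 CPM with shYY2 against 70.8, 71.1 and 72.6 CPM with shControl, -3.13 ± 0.0560 on the log2 scale or 8.77-fold lower. It had 3.49, 5.06 and 4.98 CPM with shFOXRED1 against 20.8, 20.3 and 21.1 CPM, -2.20 ± 0.138 or 4.59-fold lower. No treated library of either knockdown reached 1 of its controls, but the 2 shControl groups themselves differed, at 71.5 ± 0.993 and 20.7 ± 0.403 CPM. SERPINB2 shares 547 exon bases (19.9%) on the same strand with SERPINB10, and 15% of the 150-base windows of its transcripts also occur in SERPINB10, so a part of its reads can be split or dropped. SERPINB10, which is known from blood cells, had at most 8 counts in any library.

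SERPINB8, an inhibitor of furin and trypsin-like proteases, had a mean level of at most 4.56 TPM in any group (chr18:63969925-64019779, plus strand). With shYY2 it had 7, 8 and 8 counts (0.426, 0.477 and 0.429 CPM), and with shControl 93, 114 and 101 counts (5.11, 6.71 and 5.13 CPM). The groups stood far apart, by -3.64 ± 0.218 on the log2 scale or 12.4-fold, the largest difference downward among the 10 genes in the 4 experiments. SERPINB8 was at 5.16, 5.15 and 5.38 CPM with HFD and 2.72, 3.30 and 3.54 CPM with ND, with no overlap and a difference of 0.70 ± 0.119. With HA-TRIM15 (5.43, 5.75 and 6.90 CPM) and EV (5.60, 5.48 and 6.00 CPM) the libraries overlapped, and without HA-TRIM15 replicate 3 the sign of the difference turned from 0.09 to -0.02. With shFOXRED1 it had 2.94, 2.72 and 1.55 CPM against 3.24, 3.19 and 3.59 CPM, which did not overlap and differed by -0.45 ± 0.243, or by -0.24 without shFOXRED1 replicate 3. Its exons share 370 bases with HMSD on the same strand and 257 bases with the antisense gene AC009802.1, and whether the counting used strand is not settled.

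The starts of SERPINB2 and SERPINB8 are shown because these genes differed most between shYY2 and shControl. In the 250 bases before the RefSeq start, TGANTCA (letters that include the usual AP-1 site) was found on either strand in 4 of the 10 members, SERPINB2, SERPINB5, SERPINB8 and SERPINB13, and in 6.57% of 35116 windows of all genes. The match was TGAATCA in SERPINB2 and SERPINB5, TGACTCA in SERPINB13, and both TGAATCA and TGAGTCA in SERPINB8. This TGAGTCA began 28 bases before the start, closer to it than the part shown. The pattern is wider than the usual site, so a match need not be that site. TATAAA, the letters of the TATA box, was found in 3 members, SERPINB2, SERPINB8 and SERPINB9, and in 10.7% of all windows. It began 30 bases before the start in SERPINB2 and SERPINB9. In SERPINB8 it began 142 and 140 bases before the start, closer to it than the part shown. CCATNTT, the core letters of the YY1 family's site, was found in 0 of the 10 and in 11.6% of all windows. These letters were chosen with the sequences in view, a match is not a bound site, and TGANTCA does not overlap TATAAA in these windows. The parts shown touch no annotated exon of their own gene, but that of SERPINB2 lies in an intron of 1 SERPINB2 transcript that starts further upstream, and that of SERPINB8 lies within an exon of the antisense gene AC009802.1 (GRCh38.p14, plus strand, chr18:63887455-63887699 for SERPINB2 and chr18:63969831-63969924 for SERPINB8), with TGAATCA and TATAAA in capitals where they occur in the part shown.
SERPINB2: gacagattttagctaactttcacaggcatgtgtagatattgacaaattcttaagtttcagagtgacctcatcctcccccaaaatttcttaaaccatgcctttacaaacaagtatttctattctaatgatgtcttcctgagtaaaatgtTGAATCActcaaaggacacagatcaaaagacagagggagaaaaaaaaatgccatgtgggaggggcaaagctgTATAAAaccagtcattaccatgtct
SERPINB8: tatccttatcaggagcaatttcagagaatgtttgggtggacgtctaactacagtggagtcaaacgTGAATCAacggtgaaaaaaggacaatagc

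SERPINB5, maspin, resembles the inhibitors but does not inhibit proteases, and it marks basal and glandular epithelial cells (chr18:63476761-63505085, plus strand). It was at 61.6, 63.9 and 65.3 CPM with HFD and 68.6, 66.5 and 65.7 CPM with ND, so the groups touched without overlapping and differed by -0.09 ± 0.0390 on the log2 scale. With HA-TRIM15 (79.7, 78.4 and 81.7 CPM) and EV (81.9, 83.3 and 84.5 CPM) the picture was similar, with a difference of -0.05 ± 0.0372. It was at 38.6, 38.5 and 36.5 CPM with shYY2 against 69.3, 70.9 and 70.5 CPM with shControl, -0.88 ± 0.0406. With shFOXRED1 it was at 42.5, 43.2 and 48.9 CPM against 68.7, 75.2 and 69.4 CPM, -0.66 ± 0.0747. Maspin was thus well below its controls in both knockdowns, and 0.939 and 0.968 times its controls with HFD and HA-TRIM15.

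SERPINB7, or megsin, is a serpin of the upper epidermis whose loss causes a palmoplantar keratoderma (chr18:63752935-63805376, plus strand). It had 38.6, 37.7 and 38.0 CPM with HFD and 26.5, 27.1 and 27.6 CPM with ND, a log2 difference of 0.48 ± 0.0475. With HA-TRIM15 it had 5.97, 5.69 and 6.21 CPM against 2.95, 3.27 and 3.47 CPM with EV, 0.89 ± 0.120. Both treated groups lay wholly above their controls. With shYY2 it had 4.38, 4.11 and 4.72 CPM against 9.51, 8.18 and 9.24 CPM, -1.02 ± 0.112. With shFOXRED1 it had 11.8, 13.3 and 13.2 CPM against 17.4, 18.2 and 17.0 CPM, -0.46 ± 0.106. Both knockdown groups lay wholly below their controls.

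SERPINB1, SERPINB9 and SERPINB6 lie together on the minus strand of chromosome 6 (chr6:2832332-2842006, chr6:2887266-2903280 and chr6:2948159-2972165). SERPINB1 inhibits neutrophil elastase, proteinase 3 and cathepsin G. It had 554, 522 and 565 CPM with HFD and 280, 278 and 273 CPM with ND, a log2 difference of 0.97 ± 0.0345. It had 352, 361 and 336 CPM with HA-TRIM15 and 311, 309 and 307 CPM with EV, 0.19 ± 0.0329. The treated libraries were above all controls in both, but by 1.14-fold with HA-TRIM15. With shYY2 it had 194, 189 and 187 CPM against 350, 350 and 344 CPM, -0.86 ± 0.0285. With shFOXRED1 it had 122, 124 and 127 CPM against 254, 243 and 256 CPM, -1.01 ± 0.0534, and neither knockdown overlapped its control.

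SERPINB9 protects cells from granzyme B, the protease of killer lymphocytes. It was at 105, 105 and 114 CPM with HFD and 60.9, 59.9 and 62.9 CPM with ND, a log2 difference of 0.81 ± 0.0401. With HA-TRIM15 it was at 106, 112 and 108 CPM against 85.8, 84.5 and 86.8 CPM, 0.35 ± 0.0371. Both differences left a clear gap between the groups. In the knockdowns the libraries overlapped, at 97.3, 97.6 and 103 CPM with shYY2 against 105, 103 and 110 CPM (-0.08 ± 0.0364), and at 40.0, 44.6 and 50.3 CPM with shFOXRED1 against 50.4, 47.9 and 51.1 CPM (-0.14 ± 0.0837). The second value was -0.24 without shFOXRED1 replicate 3. The granzyme B gene GZMB itself did not pass the low-count filter in any experiment. SERPINB9 has a pseudogene, SERPINB9P1, with 84 to 575 counts in a library, and no 150-base window is shared between their annotated transcripts.

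SERPINB6 inhibits cathepsin G and trypsin-like proteases and is expressed in most tissues. It was at 142, 143 and 145 CPM with HFD and 105, 112 and 111 CPM with ND, 0.37 ± 0.0364 on the log2 scale. With HA-TRIM15 it was at 125, 120 and 122 CPM against 138, 136 and 141 CPM, -0.17 ± 0.0348. So it was above its control with HFD and below it with HA-TRIM15, without overlap in either. With shYY2 it was at 107, 100 and 105 CPM against 136, 134 and 139 CPM, -0.38 ± 0.0322. With shFOXRED1 it was at 75.9, 74.1 and 73.1 CPM against 106, 101 and 102 CPM, -0.47 ± 0.0584.

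**Figure D3:**
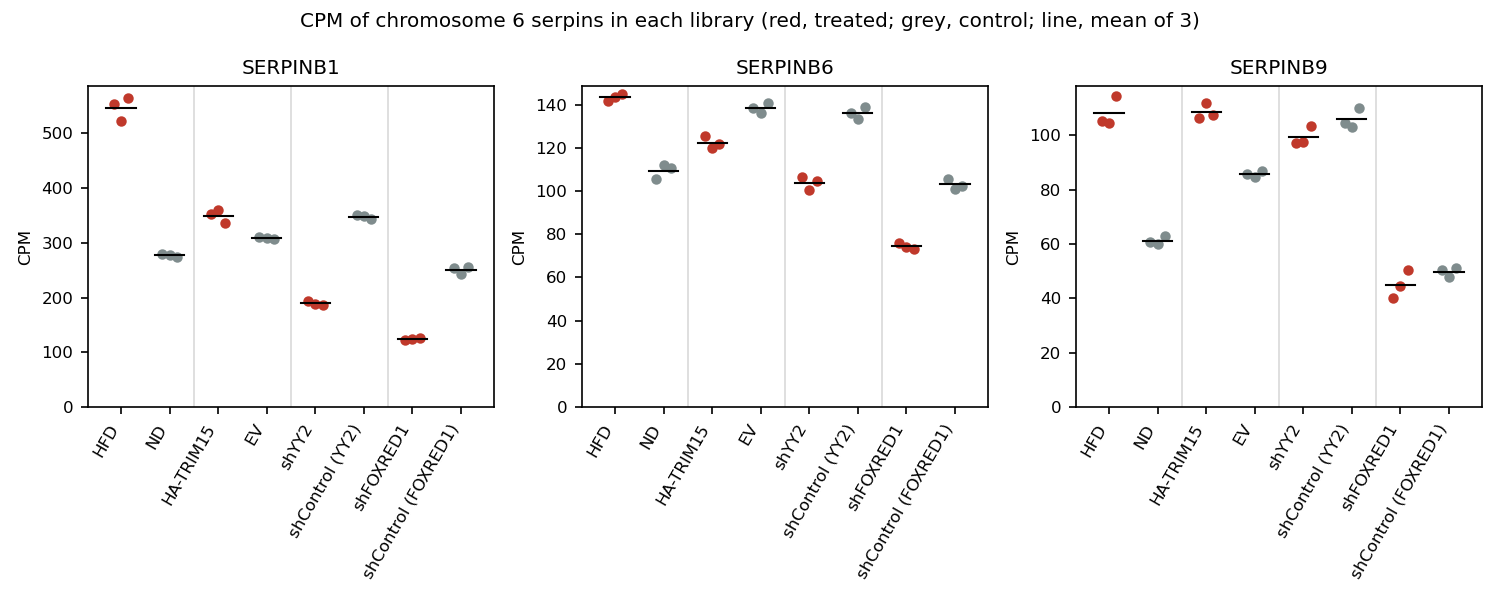
CPM of SERPINB1, SERPINB6 and SERPINB9 in each library (red, treated; grey, control; the line is the mean of 3 libraries; each axis starts at 0). All 3 are higher with HFD than ND, SERPINB6 is lower with HA-TRIM15 than EV, and SERPINB9 overlaps its controls in both knockdowns.

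SERPINB13, or headpin, an inhibitor of cathepsins L and K in differentiated squamous cells (chr18:63586989-63604639, plus strand), was at 0 in all 18 cultured libraries. It had 0, 1 and 0 counts with HFD and 0, 2 and 0 counts with ND, under the 3 counts that a 0 allows in each library. The clade B genes outside the 10 were likewise near 0. SERPINB11 and SERPINB12 had at most 3 counts in any library. SERPINB10 had 8, 3 and 6 counts with HA-TRIM15 and 1, 0 and 2 with EV, and it did not pass the low-count filter.

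Of the 10 genes, 9 passed the low-count filter in the xenografts and 7 in each cultured experiment, where SERPINB3, SERPINB4 and SERPINB13 did not. With HFD, 8 of the 9 were past an adjusted p of 0.05 upward in edgeR's quasi-likelihood test and 0 downward, beside 25.6% of all 17012 genes tested upward, 23.9% downward and 49.5% in either direction. The ninth, SERPINB5, was lower at an unadjusted p under 0.05, and DESeq2's Wald test also called 0 downward. With HA-TRIM15, 4 of 7 were past it upward (SERPINB1, SERPINB2, SERPINB7 and SERPINB9) and 1 downward (SERPINB6), beside 12.5% and 9.53% of all genes, together 22.1%. With shYY2, 6 of 7 were past it downward and 0 upward, beside 38.1% and 36.8% of all genes, together 75%, and with shFOXRED1 5 of 7 were downward and 0 upward, beside 19.7% and 16.8%, together 36.6%. In both knockdowns every member tested had a negative log2 difference, at most -0.08 with shYY2 and -0.145 with shFOXRED1. No threshold on p could therefore call a member upward there, and DESeq2 also called 0. Groups did not overlap upward for 8 and downward for 1 of 9 with HFD (29.4% and 25.8% of all genes), upward for 4 and downward for 2 of 7 with HA-TRIM15 (18.3% and 19.6%), and downward for 6 and upward for 0 of 7 with shYY2 (39.5% and 37%) and with shFOXRED1 (25.1% and 21.6%). The median log2 difference of the members tested was 0.70 with HFD, 0.19 with HA-TRIM15, -0.88 with shYY2 and -0.47 with shFOXRED1, beside medians of all genes between -0.01 and 0.01. As the members were chosen on these contrasts, nothing is read from the counts.

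**Figure D4:**
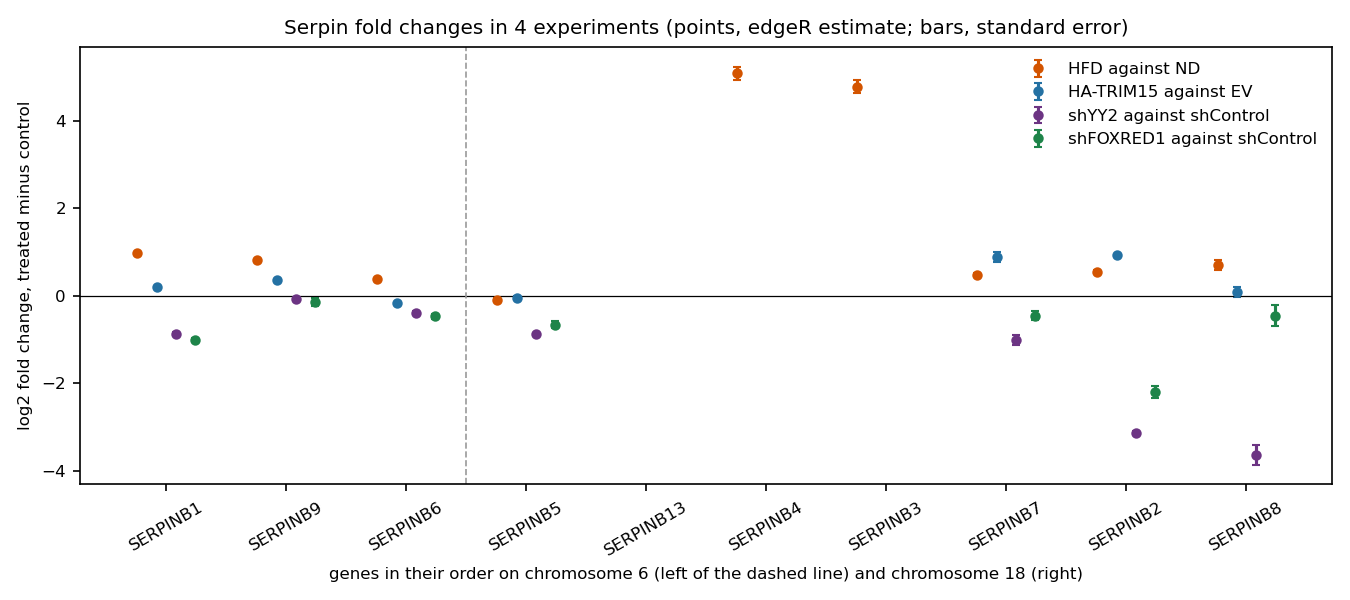
Log2 fold change of each serpin (points, edgeR estimate; bars, standard error) in the 4 experiments, with genes in their order on chromosome 6 and then chromosome 18; SERPINB13 and untested genes have no point. SERPINB3 and SERPINB4 are near 5 with HFD, while SERPINB2 is below -2 with both knockdowns, and SERPINB8 is below -3 with shYY2 and at -0.45 with shFOXRED1.

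The genes beside the 2 clusters were followed as well. Of 5 neighbours on chromosome 18 outside the serpin family, 4 were tested in each experiment. With HFD 2 of the 4 rose and 0 fell, led by VPS4B, an ATPase of endosomal sorting (67.2 ± 3.88 against 51.1 ± 2.45 CPM, log2 0.39, adjusted p = 3.57e-06 by edgeR's quasi-likelihood test). With shYY2 3 fell and 1 rose, and BCL2, the apoptosis inhibitor, was lowest at -1.45 on the log2 scale (adjusted p = 6.03e-05 by edgeR's quasi-likelihood test). With shFOXRED1 none of the 4 passed, and with HA-TRIM15 1 rose and 0 fell. On chromosome 6, 4 of 8 neighbours rose and 0 fell with HFD and 5 of 8 fell with shYY2, led by TUBB2B (0.67) and TUBB2A (-0.70), both tubulin genes. There 1 of 8 rose and 0 fell with HA-TRIM15, and 0 rose and 1 fell with shFOXRED1. Of all genes tested, 25.6% rose and 23.9% fell with HFD, and 36.8% rose and 38.1% fell with shYY2. With HA-TRIM15 12.5% rose and 9.53% fell, and with shFOXRED1 16.8% rose and 19.7% fell. The neighbours' median log2 differences, 0.16 and 0.13 with HFD and -0.35 and -0.31 with shYY2 for chromosomes 18 and 6, stood beside medians of all genes of -0.01 in both experiments.

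A further comparison is that of ND tumors with the 9 cultured control libraries (EV and both shControl groups, each weighted equally in 1 edgeR fit). All its libraries are controls of the comparisons the genes were chosen on, so it is not independent of that choice. Host, culture, plasmid and sequencing run cannot be told apart in it, and it shares its libraries with the comparisons above. Its standard errors and p-values rest on the spread within groups and leave out the spread between the cultured experiments. SERPINB7 was higher in ND tumors, at 26.6 ± 0.641 CPM (n = 3) against 9.91 ± 6.13 CPM (n = 9), a log2 difference of 1.70 ± 0.0560 with an adjusted p of 6.54e-18 in edgeR's quasi-likelihood test, and no cultured library reached the ND range. It was the 1 member called higher of the 7 tested, beside 34.5% of all 17135 genes. The sum of SERPINB3 and SERPINB4 was also higher, at 0.838 ± 0.0665 CPM against 0.265 ± 0.208 CPM, 1.94 ± 0.299 on the log2 scale (adjusted p = 4.14e-06 by edgeR's quasi-likelihood test), at levels of a few counts per library; when low counts were not filtered, or with DESeq2, SERPINB3 and SERPINB4 were tested singly and 3 members were called higher. Lower in ND tumors were 5 of the 7, beside 31.9% of all genes downward and 66.4% in either direction, namely SERPINB1, SERPINB5, SERPINB6, SERPINB8 and SERPINB9. SERPINB8 led them with -0.63 ± 0.113 (3.14 ± 0.408 against 4.97 ± 1.34 CPM, adjusted p = 3.31e-05), and SERPINB9 followed with -0.38 ± 0.0329 (60.3 ± 0.502 against 81.6 ± 25.2 CPM, adjusted p = 3.17e-10, both by edgeR's quasi-likelihood test). Of these 5, only SERPINB5 did not overlap between the ND libraries and all cultured controls (65.9 ± 2.15 against 75.9 ± 8.53 CPM), where 13.3% of all genes did so downward and 13.4% upward. The direction also depended on the control. In mean TPM, SERPINB1 was at 405 in ND tumors against 371 in the shControl of the FOXRED1 experiment. SERPINB9 (67.3 against 55.3) and SERPINB6 (37.5 against 35.7) were also above that control, while SERPINB5 and SERPINB8 were below it. SERPINB2 did not pass, at 59.2 ± 3.97 CPM against 72.4 ± 45.3 CPM (log2 0.05 ± 0.0339, adjusted p = 0.225 by edgeR's quasi-likelihood test). The fit averages the 3 control groups on the log scale, so its sign differs here from that of the CPM means.

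The proteases that these serpins inhibit were taken as a list of 13 genes, of which 8 were tested in each experiment except shFOXRED1 with 7. Those of leukocytes (ELANE, PRTN3, CTSG, CMA1 and GZMB) did not reach the filter. With HFD 4 rose and 2 fell, where 25.6% of all genes rose and 23.9% fell. PLAU, urokinase and the main target of SERPINB2, rose from 484 ± 21.1 to 946 ± 47.4 CPM (log2 0.95, adjusted p = 1.18e-11), and PLAT, tissue-type plasminogen activator, from 26.1 ± 1.56 to 59.6 ± 1.63 CPM (log2 1.17, adjusted p = 1.77e-11, both by edgeR's quasi-likelihood test). CTSS, a cathepsin inhibited by SERPINB3, rose by 0.45 and CTSK fell by 0.34 on the log2 scale. With HA-TRIM15 PLAU (0.31), PLAT (0.23) and CTSS (0.14) rose and 0 fell, where 12.5% of all genes rose and 9.53% fell.

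With shYY2 6 of the 8 proteases rose and 1 fell, so 7 of 8 passed where 75% of all genes did. The gains were largest for CTSK (16.5 ± 0.235 against 4.65 ± 0.984 CPM, log2 1.84, adjusted p = 7.72e-10), CTSL (222 ± 3.51 against 98.7 ± 7.23 CPM, log2 1.18, adjusted p = 3.92e-13 by edgeR's quasi-likelihood test) and CTSV (0.73), while PLAT fell by 0.78. With shFOXRED1 4 of 7 rose and 1 fell, where 36.6% of all genes passed in either direction. Among those that rose were CTSK (0.80), CTSS (0.67) and FURIN (0.33), while PLAT fell by 1.40 on the log2 scale (5.62 ± 0.737 against 15.0 ± 1.13 CPM). So PLAT was lower together with its inhibitor SERPINB2 in both knockdowns and higher together with it in the other 2 experiments. PLAU passed upward with shYY2 (0.23) and did not pass with shFOXRED1 (-0.07, adjusted p = 0.292 by edgeR's quasi-likelihood test), where SERPINB2 was low. The median log2 difference of the protease list was 0.09 with HFD, 0.08 with HA-TRIM15, 0.49 with shYY2 and 0.31 with shFOXRED1.

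Serpins of other clades, most of them secreted, formed a list of 21 genes of which 7 to 9 were tested. With HFD 2 of 9 rose and 5 fell, where 49.5% of all genes passed in either direction. SERPINA1, the elastase inhibitor antitrypsin, rose by 0.97 on the log2 scale, while SERPIND1, heparin cofactor, was at 0.175 ± 0.0128 CPM against 1.90 ± 0.109 CPM (-3.39 on the log2 scale, adjusted p = 1.70e-08 by edgeR's quasi-likelihood test). With HA-TRIM15 0 of 7 rose and 2 fell (22.1% of all genes in either direction), among them the collagen chaperone SERPINH1 by 0.17. With shYY2 3 of 7 rose, led by SERPINA5 (1.85) and SERPINI1 (1.31), and 3 fell (75% of all genes). With shFOXRED1 1 of 9 rose and 4 fell (36.6% of all genes), with SERPINE2 at -1.42 and SERPIND1 at -0.96. The list medians were -0.43, -0.17, 0.10 and -0.66 in the order of the 4 experiments.

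Genes of squamous differentiation were followed as a list of 32, since the clade B serpins are named with them. With HFD, 9 of 25 tested rose and 8 fell, with a median of 0.01, where 25.6% of all genes rose and 23.9% fell. KRT6A, a keratin of activated keratinocytes, rose by 1.55 (10.7 ± 0.250 against 3.67 ± 0.204 CPM, adjusted p = 1.11e-09), KRT14, a basal keratin, by 1.24 and the desmosomal cadherin DSG3 by 1.21, while SOX2, a transcription factor of foregut epithelium, fell by 1.48 on the log2 scale (adjusted p = 1.32e-07, both by edgeR's quasi-likelihood test). TP63 was also lower with HFD (-0.67). So the HFD tumors in which SERPINB3 and SERPINB4 were high had list genes on both sides of their control in near-equal number. With HA-TRIM15 8 of 20 rose and 0 fell (median 0.29), where 12.5% of all genes rose and 9.53% fell, led by KRT14 (1.46) and the cornified envelope genes SPRR2A (0.85) and SPRR1A (0.58).

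With shYY2 15 of 23 tested genes of the squamous list fell and 3 rose (median -1.10), where 38.1% of all genes fell and 36.8% rose. KRT6A fell by 3.82 (0.976 ± 0.474 against 13.8 ± 0.588 CPM, adjusted p = 1.56e-11), involucrin (IVL) by 2.94 (adjusted p = 9.95e-10, both by edgeR's quasi-likelihood test), SPRR3 by 2.16 and SPRR2A by 2.04 on the log2 scale, sizes like those of SERPINB2 and SERPINB8. With shFOXRED1 4 of 13 fell and 1 rose (median -0.02), where 19.7% of all genes fell and 16.8% rose, led by the desmosomal cadherin DSC3 (-1.24) and the kallikreins KLK5 (-1.07) and KLK7 (-0.65). In ND tumors against cultured controls 16 of 23 rose and 3 fell, where 34.5% of all genes rose and 31.9% fell, with SPRR2D at 2.38 and SPRR1A at 1.88. Of 18 columnar markers, 4 of 15 tested rose and 5 fell with HFD, and 3 of 12 rose and 3 fell with HA-TRIM15. With shYY2 5 of 13 rose and 4 fell, and with shFOXRED1 1 of 14 rose and 5 fell. In that order 49.5%, 22.1%, 75% and 36.6% of all genes passed in either direction. KRT19 averaged 19540 TPM with shYY2 against 12240 TPM with shControl, and KRT8 775 against 1179 TPM.

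**Figure D5:**
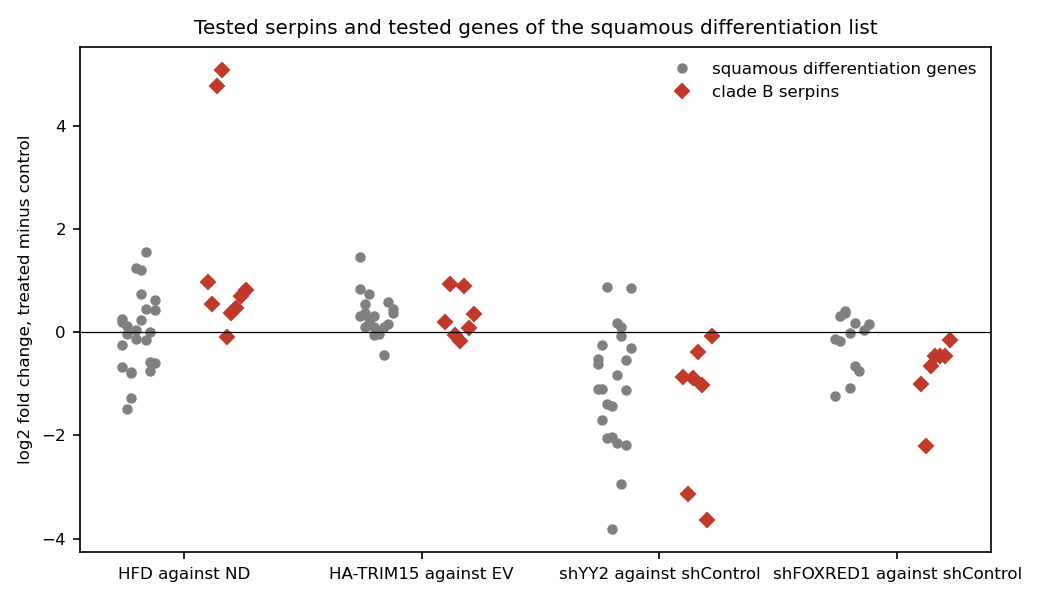
Log2 fold change in the 4 experiments of tested genes of the squamous differentiation list (grey circles) and of the tested clade B serpins (red diamonds). With HFD the grey points lie on both sides of 0 while SERPINB3 and SERPINB4 stand near 5, and with shYY2 most points of both kinds lie below 0.

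The genes whose pattern over the 24 libraries was most like that of a member were found by Pearson correlation of log2 CPM, each library set against the mean of its own control group, among 14512 genes tested in all 4 experiments. The libraries share 4 experiments and 8 groups, so these values are a description. SERPINB2 was most like INHBA, a subunit of activin (0.996), followed by COPA (0.987), IL1RL1, a receptor for interleukin 33 (0.985), GLO1 (0.984) and NAV3 (0.983). INHBA had log2 differences of 0.45, 0.70, -2 and -1.58 in the order HFD, HA-TRIM15, shYY2 and shFOXRED1, the same order of sizes as SERPINB2 in smaller steps. SERPINB5 was most like STAMBPL1 (0.991), BRIP1 (0.990), RFC5 (0.986), SLC16A1 and HMGA2 (both 0.983), among which BRIP1 and RFC5 serve DNA replication and repair. The sum of SERPINB3 and SERPINB4 was most like C3, a complement component (0.983), FAM20B (0.980), CCNC (0.979), SAMD4B and TRIM37 (both 0.977). These 5 differed by 0.59 to 1.39 on the log2 scale between HFD and ND, against 4.93 for the pair, and by at most 0.23 in the cultured experiments.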

How the data were processed

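The authors deposited 1 table of raw read counts per gene and experiment, made from poly-A RNA sequenced as paired 150-base reads. Per the labels the submitters' processing notes name the builds hg38 and mm10; aligner, counter, annotation, strand setting and the treatment of mouse reads are not given in the sources used here. Ensembl IDs were matched to GENCODE 29 symbols. Counts were fitted per experiment in R 4.3.3 with edgeR 4.0.16 (filterByExpr with a minimum count of 10 and total of 15, TMM, quasi-likelihood test, Benjamini-Hochberg over all genes tested, threshold 0.05). CPM uses TMM-scaled library sizes and TPM the union of a gene's exons. SERPINB3 and SERPINB4 were summed before a second fit. The script was tested on simulated data. DESeq2 1.42.0, its size factors, no filter, a replicate block, leaving out each library and longest-transcript lengths were alternatives. The members, lists and motifs were chosen with earlier results of these data known. Of the columnar list only the counts, KRT8 and KRT19 are given. All members are named. From the other lists at most 4 genes per experiment past the threshold with at least 1 CPM in a group are named, the largest log2 differences first. Further list genes (TP63, PLAU in the knockdowns, GZMB) were named after their values were seen. One gene that this rule names is not reported here. Likeness used log2(CPM + 0.5). Depth was 14299807 to 45994561 counts per library, which bounds precision for SERPINB3, SERPINB4, SERPINB8 and SERPINB13. Sequences are from RefSeq (GRCh38.p14) and GENCODE 29, which may not be the authors' annotation.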

Additional observations from a re-analysis of the deposited data

How the results depend on the processing

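Over the single genes and the sum of SERPINB3 and SERPINB4, 424 alternative values kept direction and side of the threshold, 5 passed it in addition and 1 turned its sign. The count of members called higher in ND tumors than in cultured controls was 1, and 3 with no filter on low counts and with DESeq2's Wald test, where SERPINB3 and SERPINB4 were tested singly; it was 1 to 2 when a library was left out, with SERPINB3 added when any 1 of the 6 shControl libraries was left out. SERPINB8 with HA-TRIM15 was -0.02 without HA-TRIM15 replicate 3 (-0.02 to 0.16 over libraries left out). With shFOXRED1, SERPINB8 was -0.62 to -0.24 over libraries left out, nearest 0 without shFOXRED1 replicate 3. SERPINB9, not called with shYY2, was called without the filter (-0.09), without shYY2 replicate 3 (-0.11) or without shControl (YY2) replicate 2 (-0.11), and with shFOXRED1 without shFOXRED1 replicate 3 (-0.24, adjusted p = 0.00592 by edgeR's quasi-likelihood test). With longest-transcript lengths SERPINB1 averaged 362 TPM and SERPINB6 69.3 TPM over the 12 control libraries, where they averaged 429 and 41.3 TPM with all exons, and the order of members changed; other causes were not tested.

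With the replicate number as a block, SERPINB9 with shYY2 was called as well (-0.08, adjusted p = 0.0231 by edgeR's quasi-likelihood test), and no other member's call changed. Deviations of libraries with the same number correlated by at most 0.097 over all genes tested, so the numbers were not treated as pairs. Over genes of at least 10 CPM the 3 correlations in the FOXRED1 experiment were 0.211, 0.125 and 0.410, with 2 of 3 treated libraries closest to their own number. There the block left every member's call as it was. In the YY2 experiment, where the block changed the call of SERPINB9, they were -0.001, 0.136 and 0.206, also with 2 of 3 closest. In the xenograft and TRIM15 experiments 1 of 3 treated libraries was closest to its own number. Depth limits SERPINB3, SERPINB4 and SERPINB13 in culture, where libraries hold 0 to 7 reads of each.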
